A study of Homo sapiens with 8 samples.

Results

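The 9 genes described here encode 6 ligands of the epidermal growth factor (EGF) family, namely AREG, EREG, TGFA, HBEGF, BTC and EPGN, and 3 of the ERBB receptor tyrosine kinases, EGFR, ERBB2 and ERBB3. They were chosen by symbol from the 23459 genes of the count table, and all 9 were found there. RNA was measured by RNA-seq of total RNA in Hct116, a human colorectal carcinoma cell line. The 4 control libraries came from cells given DMSO, the solvent of the compound, and the other 4 from cells given lenalidomide at 30 μM, and all were collected after 16 h. The RNA came from the samples of a protein labelling experiment, in which the growth medium was exchanged at treatment for one with other amino acid isotopes. Of the 4 replicates per treatment, 2 had the labels swapped, and the sample labels do not say which, so this split within each treatment could not be used. Lenalidomide is an immunomodulatory drug that binds the CRBN subunit of a cullin-RING ubiquitin ligase and redirects it to new protein substrates. All libraries come from this 1 cell line, and the study calls the replicates biological in one place and technical in another, while the labels say neither, so p-values measure only the spread between these libraries, which may be technical. The question for these genes is whether their RNA differed between both treatments.

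EGF family ligands are made as membrane-anchored precursors, are cut free by metalloproteases such as ADAM17, and bind ERBB receptors on the same or on neighbouring cells. Ligand binding lets receptors pair, and the kinase domains then switch on the RAS-ERK and PI3K pathways. AREG, TGFA and EPGN bind EGFR, whereas EREG, HBEGF and BTC can also bind ERBB4. ERBB2 has no known ligand of its own and serves as the partner of the other receptors, and ERBB3 binds neuregulins and has very weak kinase activity. In the colon the pathway supports epithelial growth and repair, and AREG and EREG are known as markers of EGFR ligand dependence in colorectal cancer.

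The libraries held between 35268940 and 37473413 counts with DMSO and between 28218471 and 33659982 with lenalidomide, so every lenalidomide library was the smaller. Lenalidomide replicate 4, the smallest, still had counts in the most genes, 19568, where DMSO replicate 4 came next with 18476. The cause of this was not tested. Levels are given as CPM (a gene's count relative to the library's total, corrected by its TMM scaling factor), and between genes as CPM per kilobase of exon. The epithelial markers EPCAM, CDH1, KRT8, KRT18, KRT19, CDX2 and CLDN7 were all present, with a summed level of 2353 to 2654 CPM with DMSO and 2278 to 2614 CPM with lenalidomide for the list of 8, whereas the eighth, VIL1, had 0 to 2 counts per library. The 6 fibroblast markers summed to 2.92 to 3.56 and 2.59 to 3.99 CPM, nearly all from COL1A1. The 7 leukocyte and endothelial markers summed to 0.386 to 0.467 CPM with DMSO and 0.482 to 1.11 CPM with lenalidomide. This sum was higher in every lenalidomide library but near 0 in all of them. Its largest part was VWF, an endothelial marker, with means of 0.31 CPM with DMSO and 0.42 CPM with lenalidomide, which overlapped between treatments. Another of the 7, PTPRC, the common leukocyte antigen, had 2, 1, 1 and 0 counts with DMSO and 4, 6, 3 and 6 with lenalidomide. It was higher in every lenalidomide library (two-sided exact permutation p = 0.0286, the smallest possible), as were 1.24% of all genes tested. PTPRC itself lay below the filter on low counts, and it was picked out of the 7 markers for this pattern. Its part in any result was not tested. In such bulk RNA, fewer cells of a kind and less RNA per cell cannot be told apart.

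Of the 6 ligand genes, 4 lie together on chromosome 4 of GRCh37, the build to which the authors aligned. From EPGN (75174187 to 75182506, plus strand) the cluster runs over EREG (75230862 to 75254466, plus strand) and AREG (75310853 to 75320722, plus strand) to BTC (75669969 to 75719733, minus strand), a span of 545547 bases. This build holds a further copy of amphiregulin, AREGB (75480629 to 75490486, plus strand), 159906 bases beyond the end of AREG. The RefSeq annotation of the later build GRCh38.p14 lists AREGB only as another name of AREG. The other members lie apart: TGFA on chromosome 2 (70674416 to 70781325, minus strand), HBEGF on chromosome 5 (139712428 to 139726188, minus strand), EGFR on chromosome 7 (55086710 to 55279321, plus strand), ERBB3 on chromosome 12 (56470583 to 56497289, plus strand) and ERBB2 on chromosome 17 (37844167 to 37886679, plus strand).

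The copy of AREG decides what its count can show, so the sequences of both copies were compared. Over the 6 exons of the transcript with the most exons in each copy, 1234 bases were compared and 1 differed, G30A, counted from the first base of the start codon, with the base of AREG first. The coding parts of exon 1, which hold this difference, are chr4:75311063-75311123 in AREG and chr4:75480839-75480899 in AREGB, both on the plus strand of GRCh37, with the differing base in capitals:
AREG: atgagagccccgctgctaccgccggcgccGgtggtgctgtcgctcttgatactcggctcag
AREGB: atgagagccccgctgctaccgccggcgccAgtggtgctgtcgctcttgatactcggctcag
Exon 3, which is coding throughout, was the same in both copies (chr4:75314764-75314965 and chr4:75484523-75484724) and is shown once as an example of a stretch from which a read could not be assigned to either:
AREG: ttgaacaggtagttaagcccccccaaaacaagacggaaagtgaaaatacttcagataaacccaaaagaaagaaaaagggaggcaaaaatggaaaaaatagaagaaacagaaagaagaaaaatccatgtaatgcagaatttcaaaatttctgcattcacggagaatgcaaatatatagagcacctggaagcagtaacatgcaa

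Of all 50-base words in the annotated exons of AREG, 2.37% occurred once in GRCh37, and of 100-base words 3.05%. In the other 8 members these shares were 96% to 100% at 50 bases and 99.9% to 100% at 100 bases. The exonic width that the table gives for AREG, 2476 bases, is close to the sum of both copies, 2473 bases. How reads matching both copies were treated is not given in the sources used here beyond the aligner's default parameters. Few exonic words of AREG are unique to it, so its value is given below as a count and not as the level of amphiregulin RNA.

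**Figure D1:**
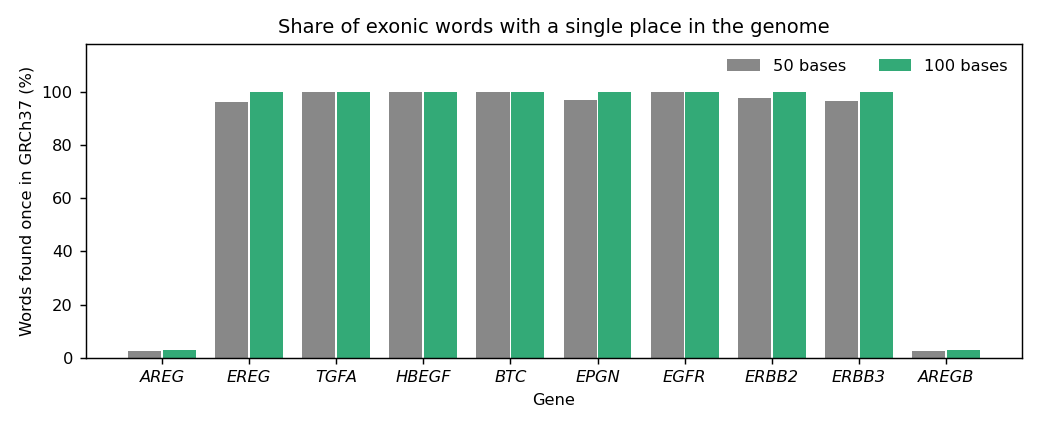
Percentage of exonic words of 50 bases (grey) and 100 bases (green) that occur once in GRCh37, for the 9 members and for AREGB. AREG and its copy stay at 2.37% to 3.05%, and the other 8 members are at 96% or above.

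The promoters of the cluster's 3 plus-strand ligands are shown because these neighbours share a promoter feature. With the AREG row left out, EREG and EPGN had the highest and the lowest RNA level per kilobase of the members. Promoter sequences were found in the RefSeq tables (GRCh38.p14) for 8 of the 9 members, not for ERBB3. The 250 bases before the annotated start are chr4:74308220-74308469 for EPGN, chr4:74364895-74365144 for EREG and chr4:74444886-74445135 for AREG, all on the plus strand, with TATAAA and TGACGTCA in capitals:
EPGN: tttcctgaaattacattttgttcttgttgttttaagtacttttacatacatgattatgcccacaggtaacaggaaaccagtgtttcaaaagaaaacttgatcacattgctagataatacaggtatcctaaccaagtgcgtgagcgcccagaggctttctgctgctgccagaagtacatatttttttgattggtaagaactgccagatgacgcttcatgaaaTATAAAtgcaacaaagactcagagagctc
EREG: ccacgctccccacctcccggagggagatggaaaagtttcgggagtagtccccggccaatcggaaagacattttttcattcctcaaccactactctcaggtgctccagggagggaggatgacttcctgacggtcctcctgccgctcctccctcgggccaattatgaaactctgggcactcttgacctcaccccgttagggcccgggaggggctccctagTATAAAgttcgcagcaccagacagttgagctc
AREG: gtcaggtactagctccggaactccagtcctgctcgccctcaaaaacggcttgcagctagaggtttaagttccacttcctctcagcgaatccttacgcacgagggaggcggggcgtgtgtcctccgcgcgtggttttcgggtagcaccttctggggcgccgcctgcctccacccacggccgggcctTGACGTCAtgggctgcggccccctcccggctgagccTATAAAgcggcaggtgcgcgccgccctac

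TATAAA, the core of the TATA box, began 29, 32 and 29 bases before the start in EPGN, EREG and AREG. At any position and on either strand it stood in 10.7% of 35116 promoters, and on the gene's own strand, beginning 25 to 35 bases before the start, in 2.17%. That window was set once the positions in these promoters were known. Of the members' other promoters, it stood in the second annotated promoter of EGFR. TGACGTCA, the cyclic AMP response element, stood in the AREG promoter alone among the members' 10 annotated promoters, against 1.65% of all promoters. The base composition of the 3 differed, with 38% G and C in EPGN, 58% in EREG and 65.2% in AREG, against a median of 58% over all promoters. BTC, on the other strand of the cluster, held no TATAAA in its 250 bases.

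EREG (Entrez gene 2069), which encodes epiregulin, had by far the highest level of the members' rows. In CPM the DMSO replicates 1 to 4 were at 993, 1027, 913 and 998, and the lenalidomide replicates at 922, 929, 1023 and 965. Both sets of 4 spanned almost the same range. Per kilobase of exon, EREG was at 179 ± 8.94 with DMSO and 175 ± 8.47 with lenalidomide (SD, n = 4 each), which put it at rank 299 of the 23459 genes, within the top 1.27%. EREG alone made up 86.3% to 88.6% of the summed level per kilobase of the 6 ligand rows in every library, AREG being counted as deposited.

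TGFA (Entrez gene 7039), which encodes transforming growth factor alpha, was the next ligand. Its DMSO replicates were at 92.1, 87.3, 95.6 and 93.6 CPM and its lenalidomide replicates at 84.7, 84.6, 94.5 and 84.4 CPM. Lenalidomide replicates 1, 2 and 4 lay below all DMSO values and replicate 3 lay among them. The level per kilobase was 19.2 ± 0.734 with DMSO and 18.2 ± 1.04 with lenalidomide (SD, n = 4 each), so that EREG exceeded TGFA 8.36- to 10.3-fold per kilobase in the DMSO libraries and 9.48- to 10.01-fold in the lenalidomide libraries.

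HBEGF (Entrez gene 1839), the heparin-binding ligand, and BTC (Entrez gene 685), betacellulin, were lower. The DMSO replicates of HBEGF were at 9.18, 8.77, 9.87 and 8.89 CPM and the lenalidomide replicates at 9.08, 9.80, 8.85 and 8.94 CPM. BTC was at 3.32, 2.65, 2.86 and 3.09 CPM with DMSO and at 3.15, 3.44, 3.19 and 2.63 CPM with lenalidomide. For both genes the treatments overlapped over most of their range. Counting error alone, 5.67% for HBEGF and 9.84% for BTC, was about as large as the coefficient of variation between replicates, which was 4.72% to 5.37% for HBEGF and 9.69% to 10.9% for BTC.

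AREG (Entrez gene 374) and EPGN (Entrez gene 255324), epithelial mitogen, were close to the lower limit of what was counted. The AREG row held 16, 16, 15 and 12 counts in the DMSO replicates and 13, 16, 15 and 10 in the lenalidomide replicates, against 27843 to 37801 counts for its neighbour EREG. Given the duplicated exons, this difference says nothing of how much amphiregulin RNA the cells held. EPGN held 9, 7, 6 and 11 counts with DMSO and 9, 10, 4 and 5 with lenalidomide, and 96.9% of its 50-base words occurred once in the genome. Per kilobase EREG exceeded EPGN 2079- to 3219-fold in the DMSO libraries and 1863- to 5090-fold in the lenalidomide libraries, with 48355 bases between both genes. These ratios are imprecise, as they rest on 4 to 11 EPGN counts per library, with a counting error of 36.2%.

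**Figure D2:**
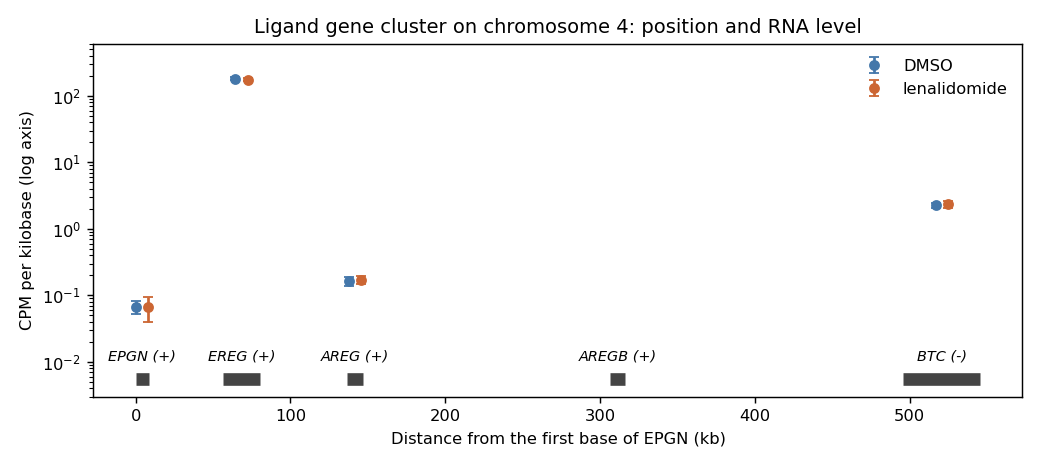
Mean CPM per kilobase of exon (log axis, error bars SD, n = 4) of the 4 ligand genes of the chromosome 4 cluster, drawn over their distance from the first base of EPGN in kilobases; grey blocks are the genes, with their strand. EREG stands far above EPGN and BTC, and AREGB has no row of its own. The AREG points show the deposited row and are not a level of amphiregulin RNA.

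The receptors had intermediate levels. EGFR (Entrez gene 1956) was at 65.5, 63.5, 66.6 and 65.8 CPM in the DMSO replicates and at 67.1, 61.8, 67.7 and 74.1 CPM in the lenalidomide replicates. The DMSO replicates lay close together, with a coefficient of variation of 1.98%, and the lenalidomide replicates, at 7.41%, included both the lowest and the highest of the 8 values. ERBB2 (Entrez gene 2064), the partner receptor, was at 47.2, 43.7, 47.7 and 44.1 CPM with DMSO and at 47.9, 43.96, 46.4 and 51.3 CPM with lenalidomide. ERBB3 (Entrez gene 2065) was at 30.9, 30.6, 28.7 and 31.8 CPM with DMSO and at 32.3, 31.7, 29.1 and 32.99 CPM with lenalidomide. Lenalidomide replicate 4, the smallest library, held the highest value of all 3 receptors, and the other 3 lenalidomide replicates lay mostly within or near the DMSO values. Exons of ERBB2 overlap those of MIEN1 (571 bases) and PGAP3 (144 bases) on the opposite strand, and exons of EGFR overlap EGFR-AS1 (186 bases), and the use of strand in counting was not stated. ERBB3 shares 31 exonic bases with a same-strand gene model.

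Per kilobase of exon the order of the 9 rows was EREG, TGFA, EGFR, ERBB2, ERBB3, HBEGF, BTC, AREG and EPGN in the mean over all libraries. This order rests on the deposited exonic widths. The GENCODE exons are longer for EGFR (15941 bases against 7141), ERBB2 (10321 against 5999) and ERBB3 (11711 against 7481). They are also longer for HBEGF (2990 against 2358) and BTC (2653 against 1323). The order by GENCODE widths was not computed, so the places of these genes relative to each other depend on the annotation. EGFR was at 9.15 ± 0.181 with DMSO, ERBB2 at 7.61 ± 0.343 and ERBB3 at 4.08 ± 0.174 (SD, n = 4). The next neighbours, ERBB3 and HBEGF (3.89 ± 0.209 with DMSO), overlapped over the 8 libraries and do not differ beyond their spread, while every other pair of neighbours was separate. With library size alone in place of TMM scaling, EGFR and ERBB2 overlapped as well. By the deposited widths, EGFR exceeded ERBB2 1.17- to 1.25-fold within each library. EGFR made up 42.8% to 44.9% of the summed level of the 3 receptors, ERBB2 35.3% to 37.7% and ERBB3 18.2% to 21.0%. The proportions were thus close to constant between libraries, while their sizes and the direction between EGFR and ERBB2 depend on the widths used. The rank of AREG is that of the deposited row and not of amphiregulin RNA, as its exons are duplicated. Whether the duplication lowered its count was not tested.

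**Figure D3:**
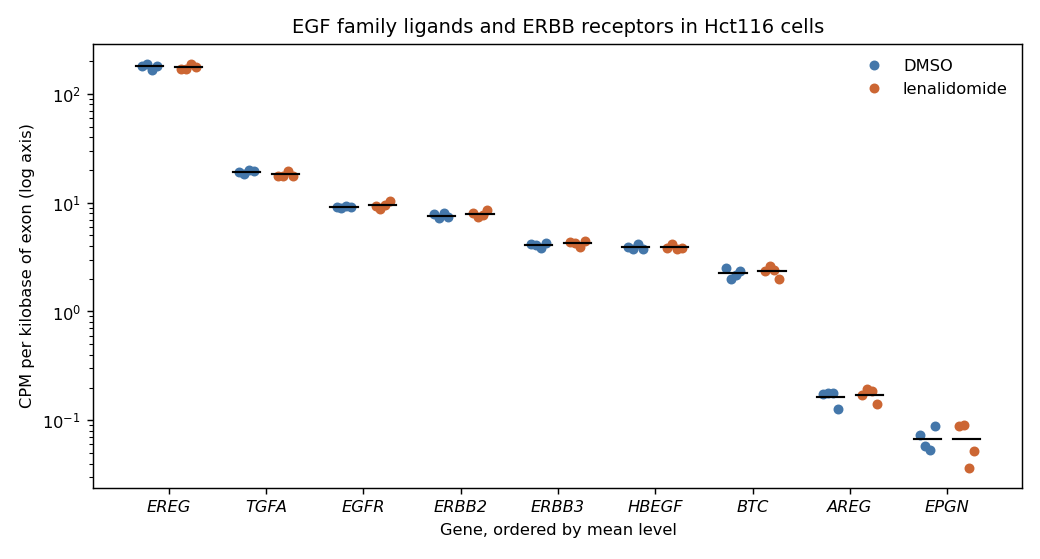
CPM per kilobase of exon (log axis) of the 9 genes in each of the 4 DMSO (blue) and 4 lenalidomide (orange) libraries, with black bars for the means. The treatments lie side by side for every gene, from about 179 for EREG with DMSO to 0.0679 for EPGN. The AREG points show the deposited row and are not a level of amphiregulin RNA.

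None of the 8 members tested, with the AREG row read as deposited, differed between lenalidomide and DMSO beyond the spread between replicates. The filter on low counts left 13925 genes and 8 of the 9 members, without EPGN. Of the genes tested, 2 (0.0144%) had an adjusted p under 0.05 in the quasi-likelihood test of edgeR, and 0 of the 8 members were among them. At an unadjusted p under 0.05 there were 582 genes (4.18%), of which 454 were higher with lenalidomide (3.26%) and 128 lower (0.919%), and again 0 members in either direction, and DESeq2 also called 0 members after adjustment. The adjusted p was 0.999 for each of the 8. The libraries of both treatments did not overlap in CPM for 290 genes (2.08%), and for 0 of the 9 members. Log2 fold changes were below 0 for 3 of the 8 members and above 0 for 5, with a median of 0.049, beside a median of 0.0025 and 48.7% below 0 over all genes tested.

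Among the ligands, TGFA had the lowest log2 fold change, -0.081 (standard error 0.055, 95% confidence interval -0.20 to 0.037, unadjusted p = 0.162 in edgeR). Its two-sided exact permutation p over the CPM values was 0.114, where 4 libraries against 4 cannot go below 0.0286. For EREG the log2 fold change was -0.034 with a standard error of 0.061, and its interval, in percent of the DMSO level, ran from -10.8% to 6.86%. HBEGF was at -0.0010, with an interval from -0.17 to 0.17. The interval of BTC was wider, from -0.21 to 0.33 around 0.060. That of the AREG row was the widest, from -0.48 to 0.64 around 0.081, which in percent is -28.3% to 56.0%, at 10 to 16 counts per library.

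The receptors' log2 fold changes were 0.050 for EGFR, 0.053 for ERBB2 and 0.047 for ERBB3, each with a standard error of 0.058 to 0.060. In percent, their intervals ran from -5.00% to 12.9% for EGFR, from -5.09% to 13.3% for ERBB2 and from -5.45% to 12.9% for ERBB3. Exact permutation p-values were 0.457, 0.429 and 0.400 (two-sided). Without lenalidomide replicate 4 the log2 fold changes were 0.0046 for EGFR, 0.013 for ERBB2 and 0.025 for ERBB3. Without DMSO replicate 3 that of ERBB3 was 0.015. Other libraries moved the values the other way when left out. Without lenalidomide replicate 2 they were 0.091 for EGFR and 0.087 for ERBB2, and without lenalidomide replicate 3 that of ERBB3 was 0.083. EPGN was fitted only when genes with at least 1 count were kept, where its log2 fold change was -0.029 with a standard error of 0.47, and no difference was detectable at this depth.

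**Figure D4:**
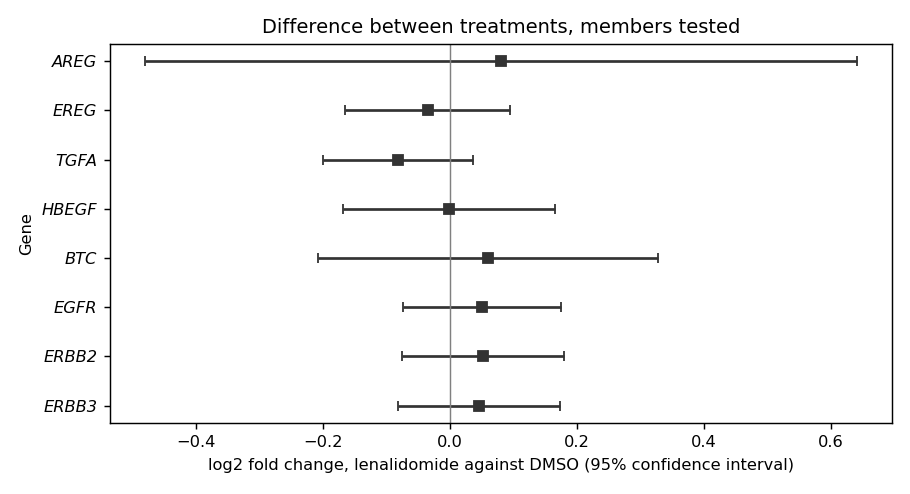
Log2 fold change of lenalidomide against DMSO with its 95% confidence interval for the 8 members tested (edgeR's quasi-likelihood fit, 4 libraries per treatment). All intervals include 0, those of EREG, TGFA, EGFR, ERBB2 and ERBB3 stay within -0.20 to 0.18, and that of the AREG row reaches from -0.48 to 0.64.

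The other 6 genes of the family were barely expressed. NRG1, NRG2 and NRG4 encode neuregulins, which are ligands of ERBB4 and only in part also of ERBB3. They had DMSO levels of 1.495 ± 0.176, 1.87 ± 0.130 and 1.24 ± 0.262 CPM (SD, n = 4), and lenalidomide levels of 1.63 ± 0.204, 1.54 ± 0.269 and 1.30 ± 0.513 CPM. EGF itself was at 0.640 ± 0.169 CPM in the control and 0.518 ± 0.226 CPM in the treated libraries (SD, n = 4), 8 to 33 counts per library. ERBB4, the receptor that EREG, HBEGF and BTC share with EGFR, had 4 to 19 counts per library, and NRG3 had 0 to 5. Of the 5 that were tested, 0 passed the threshold, and NRG2 had the smallest p (log2 fold change -0.28, unadjusted p = 0.102 in edgeR).

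Genes that act around the ligands and receptors were described in 4 lists. Of 7 tested genes for ligand release, 0 passed. The sheddases ADAM17 and ADAM10, which cut ligand precursors at the cell surface, had DMSO levels of 130.8 ± 8.75 and 150.6 ± 6.17 CPM (SD, n = 4), and lenalidomide levels of 128.2 ± 5.58 and 160.9 ± 12.1 CPM. The list's log2 fold changes ran from -0.033 for FRMD8, a binding partner of the iRhom proteins that carry ADAM17, to 0.13 for TIMP3, a metalloprotease inhibitor, with a median of 0.015. The value of TIMP3 was 0.0095 without DMSO replicate 2 and 0.012 without lenalidomide replicate 4. ADAM17 and ADAM10 were picked out for naming as the best-known sheddases, outside the rule for named genes. Of 12 genes for receptor-proximal signalling, 0 passed. PIK3R1, a regulatory subunit of PI3K, was alone in that list with an unadjusted p under 0.05 in edgeR (log2 fold change 0.18, unadjusted p = 0.0309, adjusted p = 0.999). The lowest of that list was GRB2, the adaptor that links receptors to RAS activation, at -0.11 (unadjusted p = 0.0582), and the median was 0.036.

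Of 14 genes that inhibit or remove receptors, 0 passed, and the median log2 fold change was 0.015. The highest was CBL, a ubiquitin ligase for activated receptors, at 0.16 (unadjusted p = 0.0749 in edgeR), and its libraries overlapped between treatments. Its value was 0.084 without lenalidomide replicate 4, and 0.23 without lenalidomide replicate 2 (unadjusted p = 0.00572, adjusted p = 0.421 in edgeR). The lowest was ERRFI1, a feedback inhibitor that binds the EGFR kinase domain, at -0.11 (unadjusted p = 0.0593, adjusted p = 0.999 in edgeR). ERRFI1 was at 534, 517, 545 and 521 CPM in the DMSO replicates and at 499.7, 501, 497 and 468 CPM in the lenalidomide replicates. All 4 lenalidomide values lay below all 4 DMSO values, as they did for 0.840% of all genes tested.

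The ERK pathway output list holds 14 genes whose RNA is known to follow ERK activity, and 0 passed the threshold. The median log2 fold change was -0.031, with 8 of 14 below 0. IER3, an early response gene, was the lowest at -0.23 (standard error 0.064, 95% confidence interval -0.37 to -0.090, unadjusted p = 0.00325, adjusted p = 0.999 in edgeR). Its DMSO replicates were at 263, 266, 297 and 243 CPM and its lenalidomide replicates at 233, 237, 214 and 228 CPM, without overlap. DUSP6, the phosphatase that switches off ERK, did not overlap either, by a narrow margin, with a lowest DMSO value of 99.9 CPM and a highest lenalidomide value of 99.8 CPM and a log2 fold change of -0.077. DUSP6 was picked out for naming once its values were known. The highest of the list was SPRED2, an inhibitor of RAF activation, at 0.14 (unadjusted p = 0.137 in edgeR). Its value was 0.054 without lenalidomide replicate 4 and 0.20 without lenalidomide replicate 2. Over all 5 lists of pathway genes, 52 of 54 genes were tested and 0 had an adjusted p under 0.05. In edgeR, 1 was higher and 1 lower at an unadjusted p under 0.05. In DESeq2, GRB2 and ERRFI1 were also lower at that level (unadjusted p = 0.0409 and 0.0171, adjusted p = 0.998 for both). Of the tested genes of these lists, 3 (ERRFI1, DUSP6 and IER3) did not overlap between treatments, where 2.08% of all genes tested did not.

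**Figure D5:**
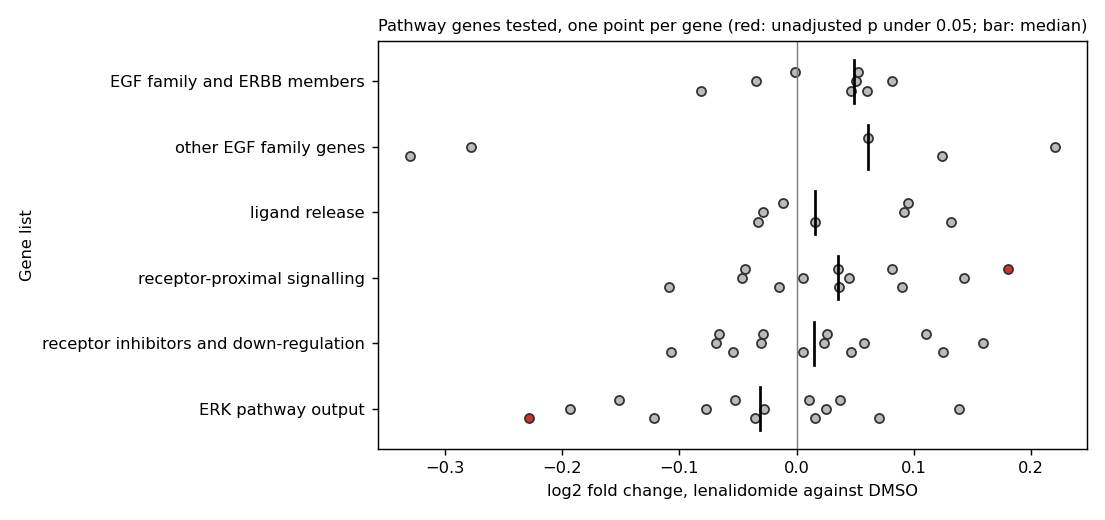
Log2 fold change of lenalidomide against DMSO for each tested gene of the members and of the 5 pathway lists, 1 point per gene, with a black bar at each list's median; red points have an unadjusted p under 0.05. The medians lie between -0.031 and 0.061, and the red points are PIK3R1 at 0.18 and IER3 at -0.23.

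The replicate spread of each well-expressed member was compared with that of the 9093 genes whose mean reached 10 CPM, as the correlation of log2 CPM deviations from the treatment means over the 8 libraries. The closest genes were COX16 and HIST1H2BO for EREG (Pearson's r = 0.982 and 0.981), ZNF37A and CYP24A1 for TGFA (0.976 and 0.957), ARFGEF3 and RPTOR for EGFR (0.987 and 0.986), SIPA1L3 and CUL7 for ERBB2 (0.983 and 0.973) and ZDBF2 and SENP7 for ERBB3 (0.985 and 0.961). These are the highest of 9093 values per member over 8 libraries, which differ in depth and were scaled together. They are a description of these libraries only.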

How the data were processed

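Total RNA of Hct116 cells was sequenced in 8 libraries, 4 per treatment. As the methods describe it, the authors prepared ScriptSeq libraries, aligned reads to hg19 (GRCh37) with QuasR at default parameters with spliced alignment, and counted them over the UCSC known genes. They deposited raw counts per gene, 1 per library, with the exonic width of each gene in bases. Versions and read length are not given in the sources used here. All samples were grouped by their titles.

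The test was edgeR 4.0.16 under R 4.3.3 (filterByExpr at 10 counts and 15 in total, TMM, glmQLFit and glmQLFTest) over 13925 genes, with p-values adjusted by Benjamini-Hochberg and a threshold of 0.05. TMM factors were between 0.971 and 1.02. The common dispersion was 0.00573. The 70 rows without a symbol carry gene identifiers, held 0.0223% of the counts and stayed in the fit. DESeq2 1.42.0, RLE scaling, both other filters (at least 1 count in all, at least 10 in every library), a replicate block and leaving out each library were alternatives. Tests were tested on simulated counts. Positions and exons are from GENCODE 44 lifted to GRCh37, and promoters from RefSeq (GRCh38.p14). Counting error of PCR reads is a lower limit of the true error.

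The genes named were the members, the other family genes, the highest and the lowest of each list, and list genes with an unadjusted p under 0.05, and for each member of at least 10 CPM the 2 genes most alike. ADAM17, ADAM10, DUSP6 and the cell type markers were named outside this rule. The members and lists were chosen with earlier results of these data known.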

Additional observations from a re-analysis of the deposited data

Results flagged for a closer look

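In groups of 4 libraries, a value was singled out where its gap to the nearest of the others exceeded Dixon's 95% critical share of the whole range. This held for 5 of 44 groups examined, where chance gives about 2.2. Among the members, lenalidomide replicate 3 stood out for TGFA with 94.5 CPM, where the others held 84.4 to 84.7 CPM, and without that library its log2 fold change was -0.12 (unadjusted p = 0.0400, adjusted p = 0.986 in edgeR). DMSO replicate 4 held 0.317 CPM (12 counts) in the AREG row, and the others 0.428 to 0.441 CPM. Among the pathway genes, lenalidomide replicate 3 held 14.8 CPM of FRMD8, and the others 12.03 to 12.3 CPM. DMSO replicate 2 held 1.99 CPM of TIMP3, and the others 2.85 to 2.997 CPM. For ERRFI1, lenalidomide replicate 4 held 468 CPM and the others 497 to 501 CPM.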

How the results depend on the processing

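The count of 0 members and of 0 listed pathway genes past the threshold was found under each of the alternatives run. Over all genes tested the count of 2 became 4 with no filter beyond 1 count, 7 with DESeq2, 6 with a replicate block, and 1 to 2 without 1 library at a time (1 in each case except without lenalidomide replicate 4). The cause was not tested. Same-numbered libraries of both treatments correlated at 0.0261, -0.0259, 0.0327 and 0.263 in their deviations from the treatment means, so the numbers were not taken as pairs, and the block changed no other call. Of 104 log2 fold changes of the 8 members under the alternatives, 98 kept their direction and 6 changed sign, in HBEGF and AREG. HBEGF was at 0.00025 under the filter of 10 counts per library and between -0.036 and 0.032 with single libraries left out, and AREG between -0.024 and 0.16. Left-out fits also changed the sign of FRMD8 (-0.11 to 0.0060), NRG4 (-0.17 to 0.29) and ERBB4 (-0.30 to 0.51). Low counts, at most 33 per library, limit EPGN, EGF, ERBB4, NRG3 and the AREG row. Whether the duplicated exons lowered the count of the AREG row was not tested.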
